A study of Homo sapiens with 18 samples.

Results

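The 9 genes described here encode the core of the AKT and mTOR growth pathway. They are the kinases AKT1 and AKT2, the kinase PDPK1 that acts on them, the brake proteins TSC1 and TSC2, the small GTPase RHEB, the kinase MTOR, and the scaffold proteins RPTOR and RICTOR of its complexes. The members were chosen by symbol as the core of the pathway, and all 9 were found among the 61806 genes listed. Their levels were compared across 18 RNA-seq libraries of human colorectal cancer cells.

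The libraries came from LoVo and DLD-1, established lines derived from colorectal adenocarcinomas. Each line was sequenced as empty vector (EV) cells, as cells made to overexpress LIN28B, and as LIN28B cells given 5 µM alpelisib, with 3 libraries in each of the 6 groups. The RNA-binding protein LIN28B keeps let-7 microRNAs from maturing, and alpelisib inhibits the alpha isoform of phosphatidylinositol 3-kinase (PI3K), the lipid kinase upstream of AKT. All cells grew in DMEM with serum, and the labels give no treatment for the EV and the untreated LIN28B cells. The length of the alpelisib treatment, the vehicle given to untreated cells and whether a line was 1 clone or a pool are not given in the sources used here. There was no EV group with alpelisib, so each effect of the drug was measured in LIN28B cells only. Whether the 3 libraries of a group came from separate cultures is not stated, and the p-values below therefore reflect the spread among these libraries alone, part of which may be technical. In bulk RNA, fewer cells of a type and less RNA per cell cannot be told apart.

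In this pathway PI3K makes a membrane lipid that recruits AKT and PDPK1, and PDPK1 then phosphorylates AKT. AKT phosphorylates TSC2 and releases RHEB, which switches on MTOR in complex with RPTOR (mTORC1), the complex that drives translation and cell growth. MTOR in complex with RICTOR (mTORC2) phosphorylates AKT in turn. These controls act mainly on proteins already made, and the libraries measured transcript levels only. Colorectal cancers often carry activating mutations of PI3K.

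Levels are in TPM, a share of the library scaled by transcript length, and sequencing depth is unknown. The gene lengths used are not given in the sources used here, so every ranking of 1 gene against another rests on that scaling. Differences were tested with limma on log2(TPM + 1) over 18537 genes, with calls made at an adjusted p (Benjamini-Hochberg) below 0.05. To check the labels, LIN28B was read in every library and lay between 1.17 and 4.91 TPM in the 6 EV libraries, between 408 and 706 TPM in the 6 LIN28B libraries and between 139 and 160 TPM in the 6 alpelisib libraries. LIN28B itself was thus lower in every alpelisib library than in every untreated LIN28B library, and its part in the alpelisib results below was not tested. The LoVo-labelled LIN28B libraries correlated with DLD-1 LIN28B at r between 0.964 and 0.968 across genes, and with LoVo EV at r between 0.890 and 0.918. Between the labels, the alpelisib libraries correlated at r between 0.953 and 0.963. For scale, libraries of the same group correlated at r between 0.967 and 0.983, and LoVo EV with DLD-1 EV at r between 0.886 and 0.918. KRT20, an intestinal keratin, lay between 0.328 and 8.36 TPM in the LoVo-labelled libraries and between 111 and 155 TPM in DLD-1. The label was kept and is named wherever a direction is drawn from it. Mitochondrial transcripts made up 24.0%, 23.1% and 14.5% of LoVo EV libraries 1 to 3 and between 7.24% and 15.8% of the other libraries, and for comparisons of the 9 genes with LoVo EV the effect of leaving out libraries 1 and 2 is given. That leaves 1 LoVo EV library, which is assumed to vary like the other groups, since they alone then supply the spread. Of 10 colorectal epithelial markers, 9 reached a mean of 1 TPM in every group and CDX1 did not. In any library, markers of fibroblasts summed to at most 15.3 TPM and those of leukocytes to at most 5.94 TPM. Those of endothelium summed to at most 1.53 TPM, against sums of 7043 to 15420 TPM for the epithelial list. Among fibroblast markers, COL1A2 was at 0 in every group. COL1A1 reached a mean of 1 TPM in every group and PDGFRB in all but LoVo EV. Among leukocyte markers, CD14 reached it in LoVo EV and the DLD-1 groups, and LYZ in DLD-1 LIN28B with alpelisib. No endothelial marker reached it.

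All 9 genes were detected in every library and passed the filter on low values. Averaged over the 18 libraries, AKT1 stood at 90.3 TPM, RHEB at 86.1 TPM, AKT2 at 82.2 TPM and TSC2 at 74.6 TPM. TSC1 at 22.6 TPM, MTOR at 20.8 TPM, PDPK1 at 13.9 TPM, RICTOR at 11.1 TPM and RPTOR at 7.28 TPM were lower. The highest library exceeded the lowest by 2.26-fold for PDPK1 and 2.23-fold for MTOR, the widest ranges among the 9, and by 1.42-fold for RPTOR, the narrowest. The plot of TPM by library shows these ranges by group.

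**Figure D1:**
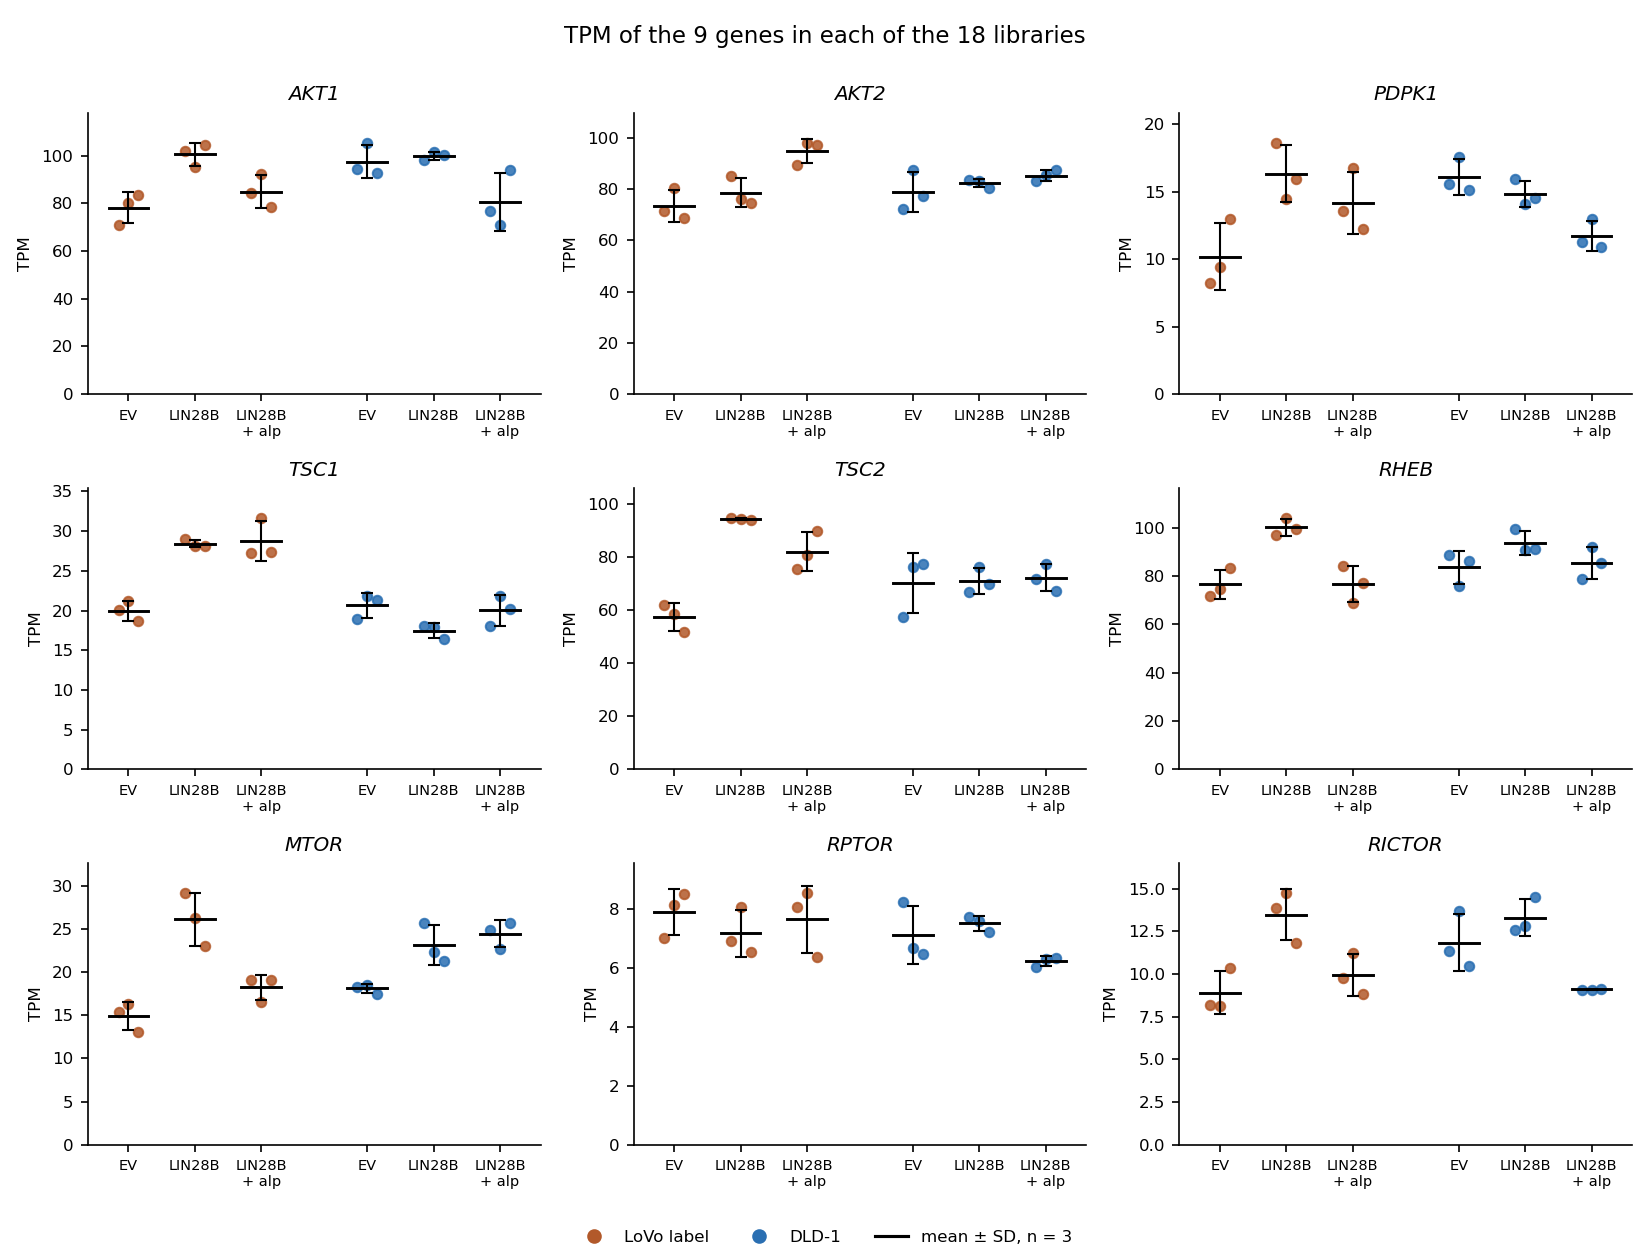
TPM (vertical axes, each from 0) of the 9 genes in the 18 libraries, by group on the horizontal axes. Points are libraries, and black bars give the mean ± SD of 3 libraries. Mean MTOR is 26.2 TPM without and 18.3 TPM with alpelisib (alp) under the LoVo label and 23.1 and 24.5 TPM in DLD-1, while RICTOR is lower with alpelisib under both labels.

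The first question was whether LIN28B changes these genes. In DLD-1, limma called 0 of the 9 genes. The smallest unadjusted limma p were 0.00748 (MTOR) and 0.0257 (TSC1), while the shares that follow refer to adjusted p. Over all genes tested, 1.21% were called higher and 1.32% lower in that comparison, and the median difference of the 9 genes was 0.06 on the log2 scale against 0.02 over all genes. Under the LoVo label, 7 of the 9 genes were called higher with LIN28B and 0 lower. The background there was 40.3% of all genes higher and 16.5% lower, with a median difference of 0.49 for the 9 genes and 0.26 over all genes.

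The LoVo comparison moved with the scaling. When libraries were rescaled by the median of ratios, the median difference over all genes went from 0.26 to -0.04, and the share of higher genes among those called went from 70.9% to 47.7%. Relative to that scale MTOR and TSC2 were called higher (0.41 and 0.33) and AKT2 and RPTOR lower (-0.28 and -0.46), and the remaining 5 genes were not called. Against LoVo EV library 3 alone, without libraries 1 and 2, MTOR, TSC1 and TSC2 were the 3 genes called higher. MTOR and TSC2 were called higher under each of the 15 alternatives run.

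The second question was what alpelisib does to the 9 genes in LIN28B cells. In DLD-1 LIN28B, 2 of 9 genes were called lower (AKT1 and RICTOR) and 0 higher, where 21.9% of all genes were called lower and 9.05% higher. In LoVo-labelled LIN28B, 3 of 9 were called lower (MTOR, RICTOR and RHEB) and 1 higher (AKT2), where the background was 24.6% lower and 15.1% higher. These shares of members stand near the background. The median of the 9 genes was -0.13 in DLD-1 and -0.20 under the LoVo label, against -0.09 and -0.06 over all genes. Median-of-ratios scaling took the median of all genes in DLD-1 from -0.09 to 0.02, and the share of higher genes among those called went from 29.2% to 48.8% in DLD-1 and from 38.1% to 50.4% under the LoVo label. On that scale the members called were RICTOR, lower, and TSC1, higher, in DLD-1, and the same 4 genes as before under the LoVo label.

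The effects were then set against each other across the labels. The effect of LIN28B was larger under the LoVo label for 4 genes (TSC1, TSC2, MTOR and PDPK1), where 30.4% of all genes were called in that direction and 12.4% in the other. On the median-of-ratios scale, where the share of higher genes among those called went from 71.0% to 48.1%, TSC1 was called higher and RPTOR lower (-0.50, adjusted p = 0.0179). The effect of alpelisib differed between the labels for 0 of the 9 genes by limma. The smallest unadjusted p was 0.00177 (MTOR). By adjusted p, 0.637% and 0.21% of all genes were called higher and lower (75.2% of calls higher, 61.7% on the median-of-ratios scale). The 2 tests of LIN28B and of alpelisib within a label share the LIN28B libraries, and the interaction tests share all of them.

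**Figure D2:**
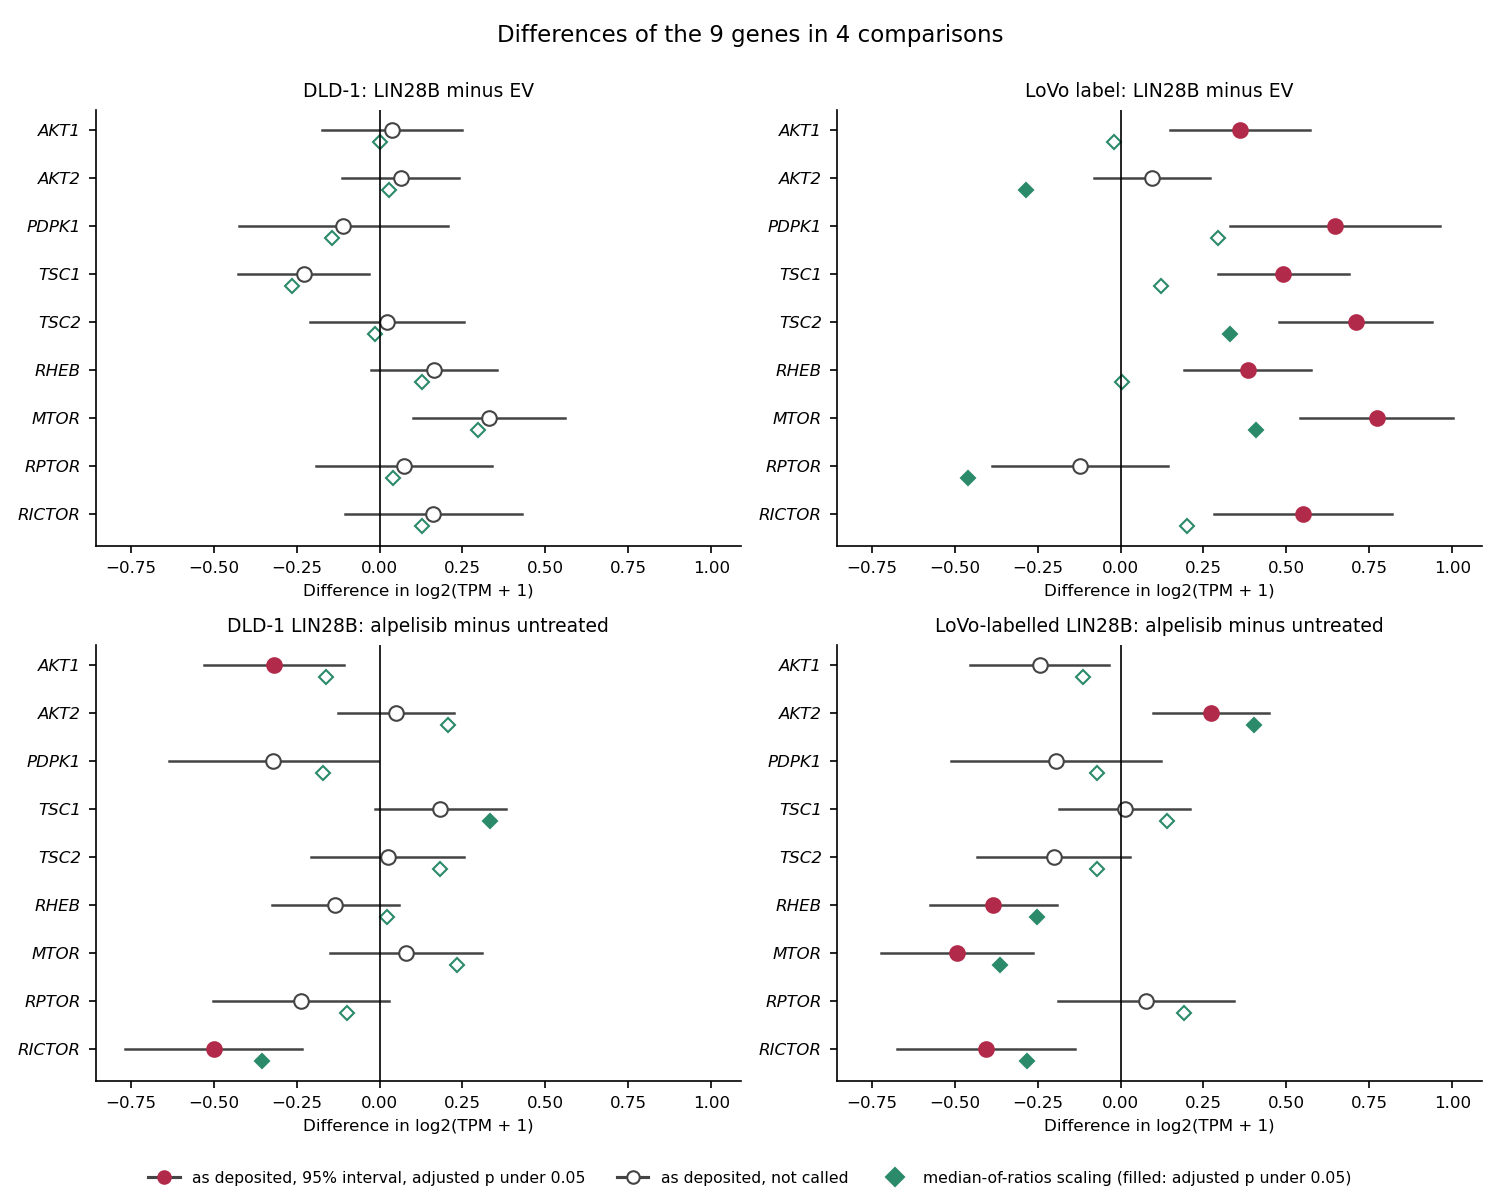
Difference in log2(TPM + 1) (horizontal axes) of the 9 genes in 4 comparisons. Circles with 95% intervals are the values as deposited, filled where called, and diamonds are the same differences after median-of-ratios scaling. The diamonds lie to the left of the circles in the comparison of LIN28B with EV under the LoVo label and to the right in both alpelisib comparisons.

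PDPK1 (ENSG00000140992; GRCh38 chromosome 16, 2537964 to 2603188, plus strand), the kinase that activates AKT at the membrane, had its lowest values in LoVo EV libraries 1 and 2. It measured 8.24, 9.39 and 12.9 TPM in the LoVo EV group, 18.6, 14.4 and 15.9 TPM in LoVo-labelled LIN28B and 13.6, 16.7 and 12.2 TPM with alpelisib. The DLD-1 values were 15.6, 17.6 and 15.1 TPM with EV, 15.9, 14.1 and 14.5 TPM with LIN28B and 11.3, 13.0 and 10.9 TPM with alpelisib. All LoVo EV values lay below all LoVo-labelled LIN28B values and below all DLD-1 EV values, and the DLD-1 alpelisib values lay below both other DLD-1 groups. PDPK1 rose with LIN28B under the LoVo label (log2 difference 0.65 ± 0.15 SE, adjusted p = 0.00139 by limma). It was lower in LoVo EV than in DLD-1 EV (-0.63, adjusted p = 0.00176). Both calls were kept when any 1 library was left out. With LoVo EV reduced to library 3 alone, the differences were 0.31 (adjusted p = 0.19) and -0.29 (0.223). The LIN28B call was also lost under median-of-ratios scaling (0.29, 0.0545). In DLD-1 LIN28B cells the alpelisib difference was -0.32 (adjusted p = 0.116). Exons of PDPK1 share 1838 bases with the antisense gene AC141586.3, and the pseudogene copy PDPK2P was listed at 1.29 to 3.08 TPM, so reads of these genes may be divided between them. The use of strand in counting was not given in the sources used here.

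AKT1 (ENSG00000142208; chromosome 14, 104769349 to 104795751, minus strand), the most broadly expressed AKT kinase, measured 70.9, 80.3 and 83.6 TPM in the LoVo EV group, 102, 95.3 and 105 TPM in LoVo-labelled LIN28B and 84.2, 92.3 and 78.3 TPM with alpelisib. Values in DLD-1 were 94.2, 105 and 92.9 TPM with EV, 98.1, 101 and 100.3 TPM with LIN28B and 76.7, 70.9 and 94.0 TPM with alpelisib. Every alpelisib value lay below every untreated LIN28B value of the same label, with LoVo-labelled alpelisib library 2 and DLD-1 alpelisib library 3 nearest to the untreated ranges. AKT1 fell with alpelisib in DLD-1 LIN28B (-0.32 ± 0.10 SE, adjusted p = 0.023), a 0.806-fold level. The call was lost in a fit of the 2 groups alone (adjusted p = 0.0682), under median-of-ratios scaling (-0.16, 0.158) and without any 1 of DLD-1 LIN28B libraries 1 to 3 or alpelisib libraries 1 or 2, where the adjusted p lay between 0.0504 and 0.116. In LoVo-labelled LIN28B the difference was -0.24 (adjusted p = 0.0614), and it was called without alpelisib library 2 (-0.31, 0.04). AKT1 rose with LIN28B under the LoVo label (0.36, adjusted p = 0.00523), and under median-of-ratios scaling that difference was -0.02 (0.871) and without LoVo EV libraries 1 and 2 it was 0.26 (0.144). AKT1 shares 663 exonic bases with the antisense gene AL583722.2, which was listed at up to 87.9 TPM.

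AKT2 (ENSG00000105221; chromosome 19, 40230317 to 40285536, minus strand), the AKT kinase best known for its part in insulin-driven glucose uptake, had its highest values where LoVo-labelled cells were given alpelisib. It measured 71.3, 80.6 and 68.7 TPM in the LoVo EV group, 84.97, 75.98 and 74.67 TPM in LoVo-labelled LIN28B and 89.5, 98.1 and 97.4 TPM with alpelisib. DLD-1 libraries had 72.2, 87.4 and 77.2 TPM with EV, 83.4, 83.0 and 80.4 TPM with LIN28B and 83.0, 85.3 and 87.3 TPM with alpelisib. The LoVo-labelled alpelisib libraries were the highest of all 18, and the other DLD-1 groups overlapped the DLD-1 alpelisib range. AKT2 rose with alpelisib under the LoVo label (0.27 ± 0.08 SE, adjusted p = 0.0152), a 1.21-fold level, and in DLD-1 the difference was 0.05 (95% interval -0.13 to 0.22). The difference between the labels was 0.22 (adjusted p = 0.471). Leaving out LoVo-labelled LIN28B library 2 or 3, or alpelisib library 2 or 3, ended the call, with adjusted p between 0.0504 and 0.0634. Median-of-ratios scaling kept it (0.40, adjusted p = 0.00194).

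Within a library the ratio of AKT1 to AKT2 does not depend on how libraries are scaled, while its level depends on the gene lengths used. It was 1.18, 1.22 and 1.25 in DLD-1 LIN28B and 0.924, 0.831 and 1.08 with alpelisib. The LoVo-labelled values were 1.198, 1.254 and 1.403 in LIN28B cells and 0.940, 0.942 and 0.804 with alpelisib. EV libraries had 0.9945, 0.9966 and 1.216 under the LoVo label and 1.305, 1.206 and 1.203 in DLD-1. AKT1 thus exceeded AKT2 in all 6 untreated LIN28B libraries, in 1 of 6 alpelisib libraries and in all but LoVo EV 1 and 2 of the EV libraries, and the treated and untreated ranges did not overlap under either label. The mean ratio with alpelisib was 0.777 times the untreated one in DLD-1 and 0.697 times under the LoVo label. An exact two-sided permutation test gave p = 0.1 in each, the smallest p that 3 libraries against 3 allow. The gap between the ranges is plain in the plot of ratios.

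**Figure D3:**
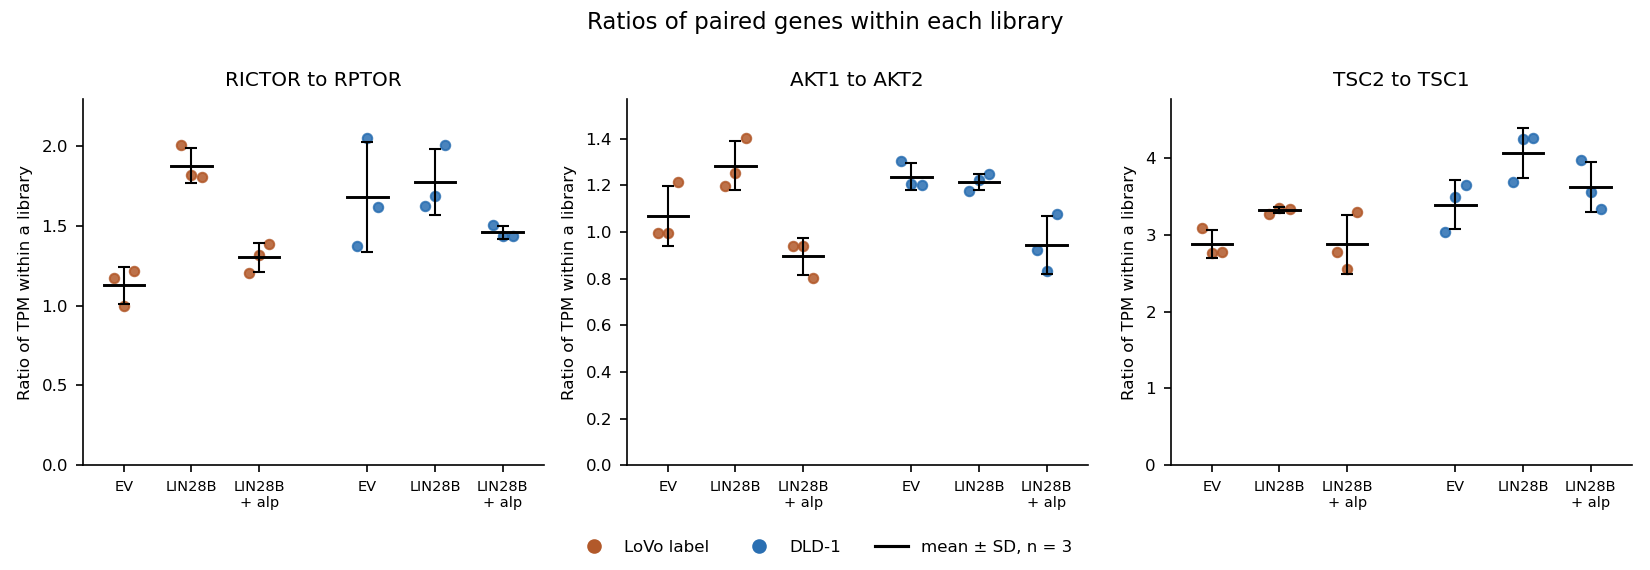
Ratios of TPM within each library (vertical axes, from 0) for RICTOR to RPTOR, AKT1 to AKT2 and TSC2 to TSC1, by group. Points are libraries, and black bars are the mean ± SD of 3 libraries. AKT1 to AKT2 and RICTOR to RPTOR are lower in the alpelisib groups than in untreated LIN28B cells of the same label.

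TSC1 (ENSG00000165699; chromosome 9, 132891348 to 132946874, minus strand) and TSC2 (ENSG00000103197; chromosome 16, 2047465 to 2089487, plus strand) form the complex that keeps RHEB inactive, TSC1 stabilising TSC2 and TSC2 acting on RHEB. When untreated LIN28B cells of the 2 labels were compared, these were the 2 of the 9 genes called. The 250 bases before a RefSeq start site of each gene are shown because both genes rose with LIN28B under the LoVo label and stood higher there than in DLD-1 LIN28B. The sequences are from the RefSeq promoter table (GRCh38.p14), TSC1 at chr9:132944617-132944866 on the minus strand and TSC2 at chr16:2047735-2047984 on the plus strand, written 5′ to 3′. Both windows lie inside the GENCODE gene spans given above, which begin at an earlier start. Capitals mark an E-box (CACGTG) and the amino acid response element TGATGCAA that overlaps it, the only matches found in either window.
TSC1: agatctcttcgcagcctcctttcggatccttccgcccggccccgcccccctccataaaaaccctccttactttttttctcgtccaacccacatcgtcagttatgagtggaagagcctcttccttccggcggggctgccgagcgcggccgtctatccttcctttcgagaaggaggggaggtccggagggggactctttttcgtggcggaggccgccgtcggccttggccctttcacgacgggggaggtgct
TSC2: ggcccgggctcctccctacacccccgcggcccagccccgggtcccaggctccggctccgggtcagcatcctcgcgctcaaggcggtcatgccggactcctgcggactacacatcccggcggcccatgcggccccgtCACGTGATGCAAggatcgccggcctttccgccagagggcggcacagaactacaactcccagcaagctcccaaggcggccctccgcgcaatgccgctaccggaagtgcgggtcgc

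The table gave 12 promoter windows of 300 bases for the 9 genes, and both strands were searched for CACGTG, TGATGCAA and the forkhead motif TGTTTAC. The TSC2 window at chr16:2047735-2048034 was the single one of the 12 with an E-box, which 7.26% of 35116 windows hold. It was also the single one with TGATGCAA, which 0.866% hold. The other TSC2 window, at chr16:2047952-2048251, held neither. None of the 12 held TGTTTAC, which 3.42% of all windows hold. A match in these letters is a description of the window and not a bound site.

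TSC1 measured 20.1, 21.2 and 18.6 TPM in the LoVo EV group, 28.96, 28.18 and 28.14 TPM in LoVo-labelled LIN28B and 27.2, 31.6 and 27.4 TPM with alpelisib. Its DLD-1 values were 18.9, 21.9 and 21.3 TPM with EV, 18.1, 17.9 and 16.4 TPM with LIN28B and 18.02, 21.82 and 20.23 TPM with alpelisib. The 6 LoVo-labelled LIN28B libraries, treated or not, lay above the other 12. TSC1 was higher in LoVo-labelled LIN28B than in DLD-1 LIN28B (0.67 ± 0.09 SE, adjusted p = 9.97e-05 by limma), a 1.63-fold level, and each of 14 alternatives kept this call. The comparison called 7.96% of all genes higher and 6.02% lower. The effect of LIN28B was 0.49 (adjusted p = 0.000268) under the LoVo label and -0.23 (0.254) in DLD-1. The 2 effects differed by 0.72 (95% interval 0.44 to 1.00, adjusted p = 0.000364), and all 21 alternatives kept that difference past the threshold, the lowest value being 0.39. The LoVo effect alone was not called under median-of-ratios scaling (0.12, adjusted p = 0.306).

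TSC2 measured 62.1, 58.6 and 51.9 TPM in the LoVo EV group, 94.8, 94.4 and 94.0 TPM in LoVo-labelled LIN28B and 75.7, 80.7 and 90.1 TPM with alpelisib. Libraries of DLD-1 had 57.4, 76.2 and 77.7 TPM with EV, 66.7, 76.3 and 70.0 TPM with LIN28B and 71.7, 77.6 and 67.5 TPM with alpelisib. The 3 LoVo-labelled LIN28B values lay within 1 TPM of each other and above the other 15. TSC2 rose with LIN28B under the LoVo label (0.71 ± 0.11 SE, adjusted p = 3.52e-05), a 1.64-fold level. In DLD-1 the difference was 0.02 (95% interval -0.21 to 0.25), and the effects differed by 0.69 (adjusted p = 0.00187), a call lost under median-of-ratios scaling (0.34, 0.156). Against DLD-1 LIN28B the LoVo-labelled libraries were higher by 0.41 (adjusted p = 0.0187). That call was lost under median-of-ratios scaling (adjusted p = 0.0563), after rescaling without mitochondrial genes and LIN28B (0.0587), and without any 1 of LoVo-labelled LIN28B libraries 1 to 3 or DLD-1 LIN28B libraries 1 or 3 (0.0505 to 0.08). TSC2 shares 778 exonic bases with PKD1 and 402 with NTHL1, both on the other strand and listed at up to 96.3 and 38.8 TPM. With alpelisib neither TSC gene was called as deposited, TSC2 differing by -0.20 under the LoVo label (adjusted p = 0.158), and TSC1 in DLD-1 was called higher on the median-of-ratios scale (0.33, adjusted p = 0.0173).

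TSC2 exceeded TSC1 in every library. The ratio of TSC2 to TSC1 was 3.04, 3.49 and 3.65 in DLD-1 EV and 3.69, 4.25 and 4.26 in DLD-1 LIN28B. LoVo-labelled libraries had ratios of 3.09, 2.77 and 2.78 with EV and 3.27, 3.35 and 3.34 with LIN28B. The LIN28B values lay above the EV values under both labels, with mean ratios 1.2 and 1.15 times those of EV (exact two-sided permutation p = 0.1 in each, the smallest possible). With alpelisib the ratios of 3.98, 3.56 and 3.33 in DLD-1 and 2.78, 2.55 and 3.30 under the LoVo label overlapped those of untreated LIN28B cells.

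RHEB (ENSG00000106615; chromosome 7, 151466012 to 151520120, minus strand), the GTPase that switches on mTORC1, measured 71.9, 74.5 and 83.5 TPM in the LoVo EV group, 97.1, 104 and 99.4 TPM in LoVo-labelled LIN28B and 84.1, 69.0 and 77.2 TPM with alpelisib. In the DLD-1 line the values were 88.7, 76.0 and 86.4 TPM with EV, 99.5, 90.7 and 91.1 TPM with LIN28B and 78.9, 92.2 and 85.3 TPM with alpelisib. With alpelisib the LoVo-labelled libraries overlapped the LoVo EV range, while the treated and untreated DLD-1 LIN28B libraries overlapped. RHEB fell with alpelisib under the LoVo label (-0.38 ± 0.09 SE, adjusted p = 0.0031), a 0.766-fold level, and all 14 alternatives kept the call. In DLD-1 the difference was -0.13 (95% interval -0.33 to 0.06), and the 2 effects differed by -0.25 (adjusted p = 0.454). RHEB rose with LIN28B under the LoVo label (0.38, adjusted p = 0.00167), but it was not called on the median-of-ratios scale (0.00, 0.971) or without LoVo EV libraries 1 and 2 (0.26, 0.112). Its processed copies RHEBP1 and RHEBP2 were listed at up to 5.26 and 5.99 TPM and may share reads with it.

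MTOR (ENSG00000198793; chromosome 1, 11106535 to 11262507, minus strand), the kinase of both complexes, measured 15.4, 16.3 and 13.1 TPM in the LoVo EV group, 29.2, 26.3 and 23.0 TPM in LoVo-labelled LIN28B and 19.1, 16.6 and 19.1 TPM with alpelisib. DLD-1 cells showed 18.3, 18.5 and 17.5 TPM with EV, 25.7, 22.4 and 21.3 TPM with LIN28B and 24.9, 22.7 and 25.7 TPM with alpelisib. LIN28B values lay above EV values under both labels, and alpelisib values lay below the untreated ones under the LoVo label and overlapped them in DLD-1. MTOR rose with LIN28B under the LoVo label (0.77 ± 0.11 SE, adjusted p = 1.37e-05), a 1.76-fold level. In DLD-1 the difference was 0.33 (95% interval 0.10 to 0.56, adjusted p = 0.133), a 1.28-fold level. MTOR fell with alpelisib under the LoVo label (-0.49 ± 0.11 SE, adjusted p = 0.00194), a 0.698-fold level that each of 14 alternatives kept below the threshold. In DLD-1 the alpelisib difference was 0.08 (95% interval -0.15 to 0.31). The alpelisib effects differed by -0.57 (95% interval -0.90 to -0.25, unadjusted p = 0.00177), and with an adjusted p of 0.1 over all genes the difference was not called.

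MTOR in DLD-1 LIN28B cells with alpelisib stayed above DLD-1 EV (0.41 ± 0.11 SE, adjusted p = 0.00922), a call kept by all 14 alternatives. In that comparison 1 of the 9 genes was called higher and 2 lower, AKT1 (-0.28, adjusted p = 0.0426) and PDPK1 (-0.43, 0.0393), where 9.71% of all genes were higher and 20.2% lower (32.5% of calls higher, 46.9% on the median-of-ratios scale). The AKT1 and PDPK1 calls were both lost without DLD-1 EV library 1, 2 or 3 or without alpelisib library 1, with adjusted p from 0.0505 to 0.164 for AKT1 and from 0.052 to 0.135 for PDPK1. AKT1 also lost it without alpelisib library 2 (0.192), and PDPK1 without library 3 (0.108). RICTOR, at -0.34 (0.0539), was called without DLD-1 EV library 3 (-0.41, 0.0376). Under the LoVo label, alpelisib-treated LIN28B cells exceeded EV in AKT2 (0.37), MTOR (0.28), TSC1 (0.50), TSC2 (0.51) and PDPK1 (0.45), 5 of 9 genes, with a background of 32.2% higher and 14.7% lower (68.7% of calls higher, 48.2% on the median-of-ratios scale). The MTOR call was lost without LoVo EV library 1 (adjusted p = 0.0629) or 3 (0.165) or alpelisib library 1 (0.123) or 3 (0.115). PDPK1 lost it without LoVo EV library 1 (0.107) or 2 (0.067) or alpelisib library 2 (0.105), and without LoVo EV libraries 1 and 2 together its difference was 0.11 (0.669). On the median-of-ratios scale TSC1 remained higher there (0.26, adjusted p = 0.0367), RHEB was lower (-0.25, 0.0263) and the other 7 genes were not called.

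RPTOR (ENSG00000141564; chromosome 17, 80544819 to 80966371, plus strand), the scaffold that presents substrates to mTORC1, had the lowest level of the 9. It measured 7.02, 8.16 and 8.53 TPM in the LoVo EV group, 6.92, 8.09 and 6.56 TPM in LoVo-labelled LIN28B and 8.07, 8.54 and 6.38 TPM with alpelisib. Readings in DLD-1 were 8.26, 6.68 and 6.47 TPM with EV, 7.72, 7.61 and 7.24 TPM with LIN28B and 6.03, 6.32 and 6.36 TPM with alpelisib. The groups overlapped except that DLD-1 alpelisib lay below every other group. No comparison called RPTOR on the deposited scale, and on the median-of-ratios scale it was called lower with LIN28B under the LoVo label and higher in LoVo EV than in DLD-1 EV (0.43, adjusted p = 0.00414). The alpelisib difference was -0.24 (95% interval -0.50 to 0.03) in DLD-1 and 0.08 (-0.19 to 0.34) under the LoVo label.

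RICTOR (ENSG00000164327; chromosome 5, 38937919 to 39074408, minus strand), the scaffold of mTORC2, was called lower with alpelisib under both labels, the LoVo call being lost in 4 of 14 alternatives. It measured 12.6, 12.8 and 14.5 TPM in DLD-1 LIN28B and 9.09, 9.06 and 9.14 TPM with alpelisib, against 11.3, 13.7 and 10.5 TPM in DLD-1 EV. Under the LoVo label it measured 13.9, 14.7 and 11.8 TPM in LIN28B cells and 9.74, 11.2 and 8.83 TPM with alpelisib, against 8.21, 8.14 and 10.4 TPM in EV. Every alpelisib value lay below every untreated LIN28B value of its label, and in DLD-1 below every EV value too. RICTOR fell with alpelisib in DLD-1 by 0.50 on the log2 scale (± 0.13 SE, adjusted p = 0.00733), a 0.684-fold level. The call held in all 14 alternatives, among them a fit of the 2 groups alone (adjusted p = 0.00967) and median-of-ratios scaling (-0.35, 0.0223). Under the LoVo label the difference was -0.41 ± 0.13 (SE, adjusted p = 0.0175), a 0.737-fold level. That call was lost without LoVo-labelled LIN28B library 1 (adjusted p = 0.0557) or 2 (0.0705), without alpelisib library 3 (0.0811), and in a fit of the 2 groups alone (0.0551). Median-of-ratios scaling kept the call just below the threshold (-0.28, 0.0495). The 2 alpelisib effects differed by 0.09 (95% interval -0.28 to 0.47). RICTOR rose with LIN28B under the LoVo label (0.55, adjusted p = 0.00136), which was not called on the median-of-ratios scale (0.20, 0.132) or without LoVo EV libraries 1 and 2 (0.34, 0.125). In DLD-1 the difference was 0.16 (95% interval -0.11 to 0.43). RICTOR shares 229 exonic bases with OSMR on the other strand, which was listed at up to 8.91 TPM.

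RICTOR exceeded RPTOR in 17 of the 18 libraries. The ratio of RICTOR to RPTOR was 1.62, 1.69 and 2.01 in DLD-1 LIN28B and 1.51, 1.43 and 1.44 with alpelisib, and the DLD-1 EV values of 1.37, 2.05 and 1.62 spanned both ranges. For the LoVo label it was 2.01, 1.82 and 1.81 in LIN28B cells and 1.21, 1.32 and 1.38 with alpelisib, against 1.17, 0.997 and 1.22 in EV. The alpelisib ranges lay below the untreated ranges under both labels, with mean ratios 0.823 and 0.694 times the untreated ones (exact two-sided permutation p = 0.1 in each, the smallest possible).

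Without LIN28B the 2 lines differed as well. LoVo EV was lower than DLD-1 EV in 5 of the 9 genes, where 38.2% of all genes were called lower and 17.3% higher. The 5 were PDPK1, AKT1 (-0.31), RICTOR (-0.37), TSC2 (-0.28) and MTOR (-0.27). On the median-of-ratios scale, which raised the median over all genes from -0.20 to 0.05 and took the share of higher calls from 31.2% to 52.6%, PDPK1 remained lower (-0.33, adjusted p = 0.033), and AKT2 (0.23), TSC1 (0.27) and RPTOR (0.43) were called higher in LoVo EV, with AKT1 (0.01), MTOR (0.04) and TSC2 (0.05) turning in sign and not called. RICTOR was not called there either (-0.07, adjusted p = 0.593). With LoVo EV library 3 alone, MTOR (-0.44) and TSC2 (-0.42) were the 2 genes called lower. Single libraries ended calls for AKT1 (LoVo EV 1, adjusted p = 0.0694, or DLD-1 EV 2, 0.0645), RICTOR (LoVo EV 1, 0.0709, or 2, 0.0777, or DLD-1 EV 2, 0.106) and TSC2 (LoVo EV 2, 0.0669, or 3, 0.141, or DLD-1 EV 2, 0.154, or 3, 0.166). The MTOR call was lost without LoVo EV 1 (0.061) or 3 (0.169) or any 1 of the DLD-1 EV libraries (0.0591 to 0.104).

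The partners of the members were read from a list of 96 other pathway genes, of which 94 passed the filter. In the mTOR complexes, MAPKAP1, a subunit of mTORC2 beside RICTOR, measured 67.0, 59.7 and 42.1 TPM in DLD-1 LIN28B and 39.8, 36.7 and 34.3 TPM with alpelisib. LoVo-labelled libraries measured 52.8, 46.8 and 55.2 TPM and 31.9, 31.8 and 31.9 TPM. The treated and untreated values did not overlap under either label. MAPKAP1 fell with alpelisib by 0.57 on the log2 scale in DLD-1 (adjusted p = 0.0328), a call lost in 8 of 14 alternatives, and by 0.68 under the LoVo label (0.0103), a call kept in all 14. MLST8, a subunit of both complexes, differed by -0.01 and -0.17 and was not called. AKT1S1, the mTORC1 inhibitor that AKT phosphorylates, rose under the LoVo label (0.31, adjusted p = 0.0371), and in DLD-1 the difference was 0.23 (0.135). The AKT1S1 call was lost in 7 of 14 alternatives, among them those without LoVo-labelled LIN28B library 3 (0.21, 0.18) or alpelisib library 1 (0.0918), 2 (0.069) or 3 (0.0671), and on the median-of-ratios scale AKT1S1 was called higher in DLD-1 too (0.38, 0.017). DEPTOR, an inhibitor of both complexes, stood between 1.19 and 3.70 TPM and was not called with alpelisib.

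Of the 94 other pathway genes, 30 fell and 6 rose with alpelisib in DLD-1, with a median of -0.22, and 39 fell and 7 rose under the LoVo label, with a median of -0.29. The backgrounds are the 21.9% and 24.6% of all genes called lower and the 9.05% and 15.1% called higher, with medians of -0.09 and -0.06. On the median-of-ratios scale 21 were lower and 11 higher in DLD-1 and 28 lower and 9 higher under the LoVo label. Over all 18537 genes that scale gave 2819 lower and 2686 higher in DLD-1. Under the LoVo label it gave 3639 lower and 3699 higher. As deposited, without LoVo-labelled alpelisib library 2, the pathway genes higher under the LoVo label numbered 3. Among mTORC1 substrates and translation factors, 9 of 17 fell and 1 rose under each label. LPIN1, a phosphatidate phosphatase, fell by 1.03 and 1.398 on the log2 scale in DLD-1 and under the LoVo label, and RPS6, a ribosomal protein phosphorylated downstream of mTORC1, rose by 0.68 in DLD-1. EIF4EBP1, the translation repressor, fell by 1.02 under the LoVo label. Of 8 AKT substrates, 4 fell in DLD-1 and 6 under the LoVo label, among them TBC1D4, the regulator of glucose transporter traffic (-1.17 under the LoVo label). Of 31 amino acid sensing genes, 7 fell and 4 rose in DLD-1 and 11 fell and 4 rose under the LoVo label, with SESN2, a leucine sensor, at -1.39 in DLD-1. Among 8 PI3K subunits, 2 fell in DLD-1 and 4 under the LoVo label. PIK3R1, the main regulatory subunit, fell by 0.99 and 0.90, and PIK3CA, the catalytic subunit alpelisib inhibits, differed by -0.14 and -0.29 and was not called. DDIT4, a stress-induced inhibitor of mTORC1, fell from 1298, 960 and 1235 TPM to 82.0, 109 and 97.3 TPM in DLD-1 and from 3173, 2882 and 3258 TPM to 403, 553 and 367 TPM under the LoVo label. The plot of these lists sets the 9 core genes, between -0.50 and 0.27, beside LPIN1 and DDIT4.

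**Figure D4:**
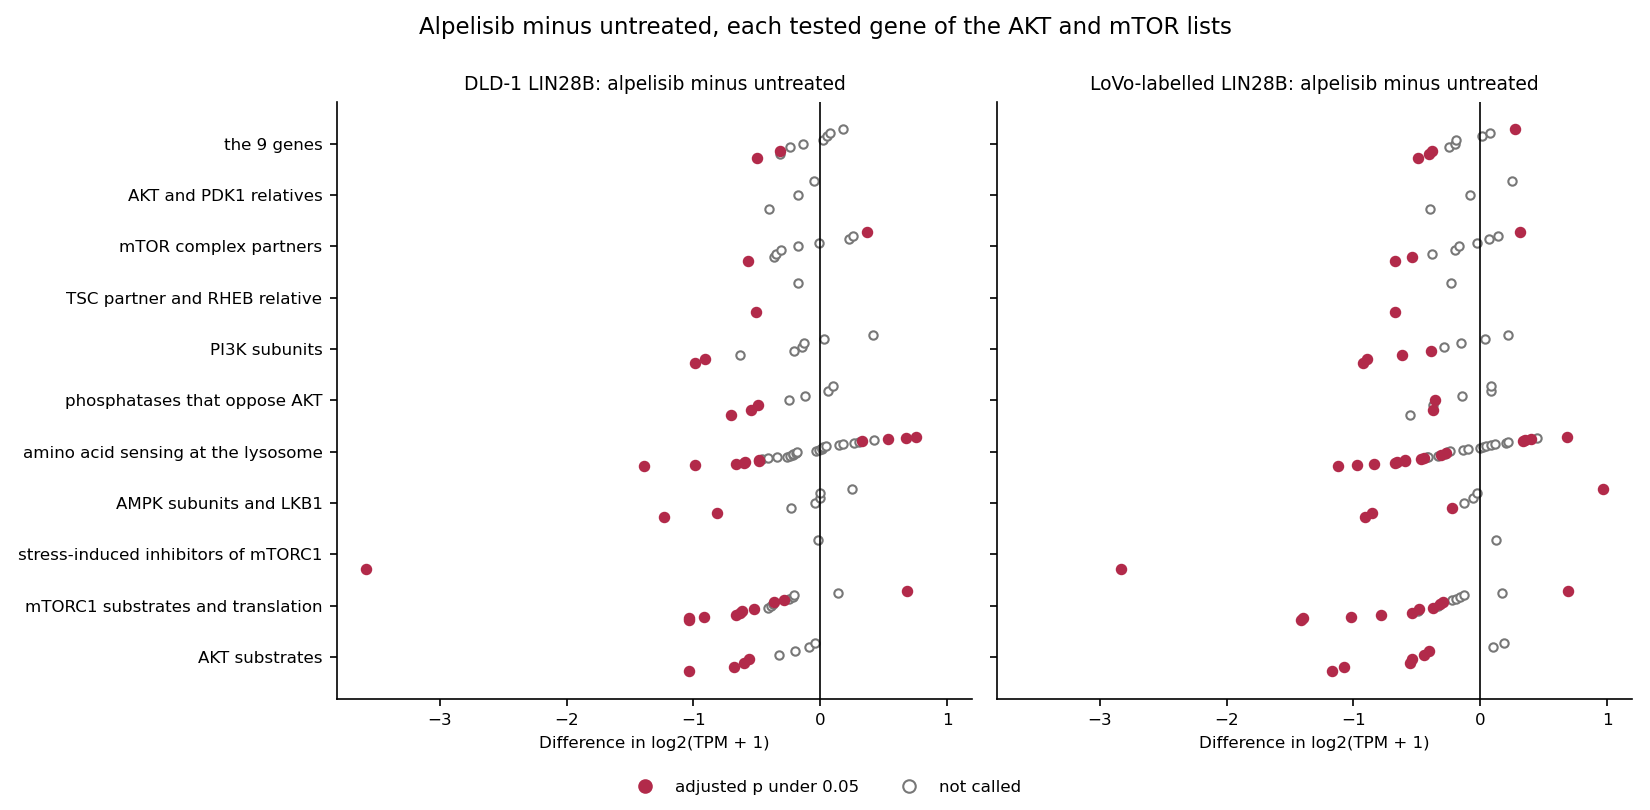
Difference in log2(TPM + 1) between alpelisib and untreated LIN28B cells (horizontal axes) for the 9 genes and each tested gene of 10 other lists, DLD-1 on the left and the LoVo label on the right. Filled points were called. DDIT4 stands alone at -3.58 and -2.83, and the 9 genes lie between -0.50 and 0.27.

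With LIN28B, limma called 2 of the 94 other genes higher and 0 lower in DLD-1, where 1.21% and 1.32% of all genes were called. At an unadjusted p under 0.05 there were 12, and no share of all genes at that threshold is given here. The 2 called were SESN2 (0.80, adjusted p = 0.038) and the S6 kinase gene RPS6KB2 (0.40, 0.0384). Both calls were lost in most alternatives, SESN2 in 8 and RPS6KB2 in 9 of 14. PIK3CA, PIK3R1, DDIT4, MAPKAP1, MLST8, DEPTOR and AKT1S1 differed there by -0.01, 0.04, 0.47, 0.36, -0.14, 0.06 and 0.02 and were not called. Under the LoVo label 55 of 94 rose and 6 fell, where 40.3% of all genes were higher and 16.5% lower. On the median-of-ratios scale 35 were higher and 23 lower, against 4750 higher and 5211 lower of all 18537 genes. As deposited, the pathway genes with the smallest p included PDCD4 (1.72), a translation inhibitor, DDIT4 (2.76) and SESN3 (1.87), a sestrin. PIK3CA (1.09), PIK3R1 (1.16), MAPKAP1 (1.14) and DEPTOR (0.60) also rose there, and MLST8 (0.21) and AKT1S1 (-0.03) were not called. The DEPTOR call was lost on the median-of-ratios scale (0.37, adjusted p = 0.0886) and with LoVo EV library 3 alone (0.61, 0.0932). AKT1S1 was called lower on the median-of-ratios scale (-0.41, 0.00563).

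In the remaining comparisons the other pathway genes were read the same way. Alpelisib-treated LIN28B cells against EV gave 6 of 94 higher and 34 lower in DLD-1 (9.71% and 20.2% of all genes). On the median-of-ratios scale the counts were 12 and 24, against 2657 and 3006 of all 18537 genes. The calls were led by DDIT4 (-3.11), LPIN1 (-0.92), CASTOR2 (0.93), from the amino acid sensing list, and RPS6 (0.67). PIK3R1 stood at -0.95, and PIK3CA was not called (-0.15). Against LoVo EV, 33 were higher and 15 lower (32.2% and 14.7% of all genes), led by SESN3 (2.07), the AMPK subunit gene PRKAB1 (2.07), PDCD4 (1.42) and EIF4EBP1 (-1.09). These counts were 24 and 24 on the median-of-ratios scale, against 4089 and 4387 of all 18537 genes. PIK3CA was higher there (0.80), a call lost with LoVo EV library 3 alone (0.43, adjusted p = 0.058), and DDIT4 (-0.08) and PIK3R1 (0.26) were not called. Between the EV groups, 9 were higher and 51 lower in LoVo (17.3% and 38.2% of all genes), among them PDCD4 (-1.68), SESN3 (-1.95) and FNIP2 (-1.67), and DDIT4 (-0.86), PIK3CA (-0.77), PIK3R1 (-0.93), MAPKAP1 (-0.87) and DEPTOR (-0.86) were lower too. On the median-of-ratios scale 23 were higher and 38 lower, against 5207 and 4688 of all 18537 genes. With LoVo EV library 3 alone the differences of MAPKAP1, DDIT4 and PIK3CA shrank to -0.33, -0.46 and -0.40. LoVo-labelled LIN28B against DLD-1 LIN28B gave 10 higher and 3 lower (7.96% and 6.02% of all genes). They were led by DDIT4 (1.43), the GTPase gene RRAGD (2.16), the AKT relative SGK2 (1.55) and LPIN1 (0.57). On the median-of-ratios scale the counts were 12 and 5, against 1476 and 1386 of all 18537 genes. The LIN28B differences were compared with their sign, so a negative value need not mean a smaller effect. The difference was called higher under the LoVo label than in DLD-1 for 45 and lower for 6 (30.4% and 12.4% of all genes). Among them were PDCD4 (1.67), SESN3 (1.73) and PRR5 (-1.28). PRR5 stood at 32.7 TPM in LoVo EV and at 14.7 TPM in LoVo-labelled LIN28B. The counts of 45 and 6 depended on scaling and libraries. On the median-of-ratios scale they were 30 and 16, against 3544 and 3822 of all 18537 genes. Without LoVo EV library 2 the lower count was 2. For the effect of alpelisib, limma called 0 of 94 as different between the labels, where 0.637% and 0.21% of all genes were called higher and lower. At an unadjusted p under 0.05 there were 11, again with no share of all genes given here.

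The members were compared with one another and with other genes by Pearson's r of log2(TPM + 1) over the 18 libraries, a description in which the libraries share groups and scaling. The highest r between members were 0.84 for AKT1 and RICTOR, 0.80 for RICTOR and PDPK1, 0.75 for AKT1 and PDPK1 and 0.71 for TSC1 and TSC2. The lowest was -0.41, for MTOR and RPTOR, and AKT1 and AKT2 stood at 0.01. Among 12689 genes with a mean of at least 2 TPM, RICTOR was most like DCP1A (0.95) and GNA13 (0.93), and PDPK1 most like ADAM10 (0.94) and INTS9 (0.94). TSC1 was most like PLCG1 (0.94) and SMAD9 (0.93), TSC2 like PAXBP1 and PHC1 (0.91 each), and AKT1 like ARNT and GATAD2A (0.93 each). MTOR was most like LIG1 (0.92) and HELLS (0.91), which act in DNA replication and chromatin remodelling, AKT2 like TBC1D10B (0.92) and ANKHD1-EIF4EBP3 (0.88), and RHEB like DNTTIP2 (0.92) and OXCT1 (0.90). RPTOR had the weakest likeness, with ARPC4-TTLL3 (0.77) and SETD4 (0.76).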

How the data were processed

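Per the file headers, the authors deposited TPM for each gene in each library. Per the submitters' processing notes, hg38, STAR 2.7.10, Picard, HTSeq and DESeq2 were named, without role or order. Annotation release, strand setting and gene lengths are not given in the sources used here. Because TPM fixes each library's total and keeps no depth, no count model or counting interval was used. Genes with at least 1 TPM in 3 of 18 libraries were kept. R 4.3.3 and limma 3.58.1 fitted log2(TPM + 1) (6 groups, 12 residual degrees of freedom, mean-variance trend), with two-sided tests and Benjamini-Hochberg adjustment over all 18537 genes, after a check on simulated data. Differences on this scale understate those of low genes. The fold levels printed beside them are ratios of mean TPM between groups, not values converted from the log2 differences. Named genes were the 9 members, fixed partners, and the called pathway genes with the smallest p (up to 4 per comparison). Some genes under this rule are not reported here. Gene spans and exonic overlaps came from GENCODE 29, and promoters from RefSeq. Members and lists were chosen with earlier results of these data known. Alternatives covered pseudocount, filter, scaling, trend, groups fitted, the replicate block and leaving out libraries. Leaving out LoVo EV libraries 1 and 2 together was added after seeing the data. Deviations of same-numbered libraries correlated at between -0.302 and 0.119, which cannot decide whether the numbers mark a shared batch.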

Additional observations from a re-analysis of the deposited data

Results flagged for a closer look

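The effect of LIN28B differed between the LoVo and DLD-1 labels for 4 of the 9 genes, by limma's interaction test. PDPK1 differed by 0.76 (adjusted p = 0.0084), TSC1 by 0.72 (0.000364), TSC2 by 0.69 (0.00187) and MTOR by 0.44 (0.0287), each with the larger effect under the LoVo label. In this comparison 30.4% of all genes were called in the same direction. The LoVo-labelled LIN28B libraries resemble DLD-1 LIN28B more than LoVo EV across genes, and LoVo EV libraries 1 and 2 have the highest mitochondrial shares. The part of either in these differences was not tested. With LoVo EV reduced to library 3 alone, which is assumed to vary like the other groups, TSC1 (0.81), TSC2 (0.83) and MTOR (0.61) were called and PDPK1 (0.42, adjusted p = 0.173) was not. The MTOR call was also lost without LoVo EV library 3 (adjusted p = 0.0624), LoVo-labelled LIN28B library 1 (0.0817) or 2 (0.0512), DLD-1 EV library 1 (0.0531) or 2 (0.0575), or DLD-1 LIN28B library 2 (0.0594) or 3 (0.0743).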

How the results depend on the processing

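The number of the 9 genes called was within 1.5 times its main value except as follows. Under median-of-ratios scaling it went from 7 to 4 for LIN28B versus EV under the LoVo label, from 3 to 1 for LIN28B with alpelisib versus EV in DLD-1, from 5 to 2 for the same under the LoVo label, from 2 to 1 for LoVo-labelled versus DLD-1 LIN28B and from 4 to 2 for the difference of the LIN28B effect. After rescaling without mitochondrial genes and LIN28B it was 2, 2 and 1 for LIN28B with alpelisib versus EV under the LoVo label, LoVo EV versus DLD-1 EV and LoVo-labelled versus DLD-1 LIN28B. With no filter it was 1 for LIN28B with alpelisib versus EV in DLD-1 and 3 for the EV groups, and with no trend 3 for the EV groups. With the compared groups alone it was 1 for alpelisib in DLD-1, 3 for LIN28B with alpelisib versus EV under the LoVo label and 2 for the EV groups. Without LoVo EV libraries 1 and 2, which leaves that group 1 library, it was 3 for LIN28B under the LoVo label and 2 for the EV groups. Leaving out 1 library gave 1 to 2 for alpelisib in DLD-1, 2 to 4 for alpelisib under the LoVo label, 1 to 2 for LIN28B with alpelisib versus EV in DLD-1, 3 to 4 for the same under the LoVo label, 1 to 4 for the EV groups and 1 to 2 for LoVo-labelled versus DLD-1 LIN28B. The counts of 0 stayed at 0 in all alternatives.

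Among values called on either scale, median-of-ratios scaling turned the sign of AKT1 (-0.018) and AKT2 (-0.28) for LIN28B versus EV under the LoVo label, of MLST8 (-0.20) for LIN28B with alpelisib versus EV there, and of AKT1 (0.011), AKT2 (0.23), MTOR (0.040), TSC1 (0.27) and TSC2 (0.046) for LoVo EV versus DLD-1 EV. Values called on neither scale turned as well, among them RHEB (0.20) in the last comparison and MLST8 (-0.16) for LIN28B versus EV under the LoVo label. The scaling's construction, which sets the median of ratios to 1, moves all genes of a library together. With a replicate block 1 of the 9 genes was called for LIN28B with alpelisib versus EV in DLD-1, in place of 3, and the count of members stayed within 1.5 times elsewhere. Whether the numbers mark a shared batch is not stated. Correlations of same-numbered deviations lay between -0.302 and 0.119 over 24 pairs, which cannot decide whether the libraries were paired. Depth is unknown, which bears most on RPTOR, RICTOR and PDPK1, the lowest of the 9.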
